A study of Mus musculus with 42 samples.

Results

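The 7 genes described here, Rgs1, Rgs2, Rgs10, Rgs14, Rgs16, Rgs18 and Rgs19, encode regulators of G protein signalling. They were taken by symbol from the 37310 genes of an RNA-seq count table, and all 7 were among the 11624 genes that passed the filter on low counts. They had been selected on their measured counts and on their fold changes under LPS and over time in these same libraries, so that their levels and those changes are given as a description. The libraries came from bone-marrow-derived macrophages (BMDM), which are bone marrow cells grown into macrophages in medium conditioned by L929 cells. Donor mice were young adult males of 2 genotypes. Mice labelled KO carried a floxed Irf5 gene and LysM-Cre, which places the recombinase under control of the myeloid gene Lyz2, and mice labelled WT were wild-type. Irf5 encodes interferon regulatory factor 5, a transcription factor of inflammatory responses. Cells of each genotype were kept without treatment (Control) for 0, 2 or 24 h, or received palmitate, a saturated fatty acid, or bacterial lipopolysaccharide (LPS), an agonist of the receptor TLR4, for 2 or 24 h. The 14 groups held 3 libraries each. Nothing in the labels ties a library to an animal or a culture, and p-values therefore measure a spread between libraries that may be technical.

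RGS proteins bind the GTP-loaded alpha subunit of a heterotrimeric G protein and speed the hydrolysis of its GTP, which shortens the signal that a receptor sends after it binds a ligand. In macrophages such receptors read chemokines, complement fragments, adenosine, prostaglandins and lipid mediators, and much of their output passes through cyclic AMP, phospholipase C beta and calcium. Rgs1, Rgs2, Rgs16 and Rgs18 encode small proteins made of little more than the RGS domain, and RGS2 is known for its preference for the Gq class. RGS10 is also small and is abundant in macrophages and microglia. RGS14 carries Ras-binding and GoLoco motifs beside its RGS domain, and RGS19, also called GAIP, binds the adaptor GIPC.

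Total counts per library lay between 2848793 and 7743442, and 3 counts stood for 0.387 to 1.05 CPM, the count scaled to library size. Summed macrophage markers (8 genes, such as Csf1r and Adgre1) reached 9800 to 23595 CPM in every library. Lyz2 alone made up 4682 to 14587 CPM, and the sum was lower in all KO than in all WT libraries of each condition. Lyz2 is part of that sum and was itself lower in KO, as given below. The lower sum therefore does not show that the other macrophage markers were lower or that macrophages were fewer. T and NK cell markers summed to at most 2.60 CPM and erythroid markers to at most 0.369 CPM. The targeted gene went against its label. Irf5 was read in all libraries labelled KO and was higher there than in WT in 4 of 7 conditions, while it was not called in the other 3. A count over the whole gene also covers exons outside the floxed segment and cannot show whether that segment was lost. KO in the following therefore stands for the libraries labelled KO. Lyz2, the gene that carries the Cre insertion, was lower in KO in 7 of 7 conditions, by 0.51 to 1.11 on the log2 scale. Summed neutrophil and precursor markers (8 genes, 5 of them tested) were higher in all KO than in all WT libraries of each condition, at 19.3 to 82.1 CPM in WT and 40.7 to 199.97 CPM in KO. Fibroblast markers (5 genes) varied from library to library, from 0 to 286 CPM. At Control 0 h they summed to 0.132 to 0.905 CPM in WT and 37.8 to 63.3 CPM in KO. At Control 2 h the sums were 1.16 to 52.1 and 63.5 to 102 CPM, and at LPS 2 h 0 to 0.371 and 0.759 to 132 CPM. In the other conditions the genotypes overlapped, and the part of these markers in the results was not tested. In bulk RNA, fewer cells of a type and less RNA per cell cannot be told apart.

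On the GRCm38 assembly, 4 of the 7 genes lie on chromosome 1. Rgs2 (chr1:143999338-144004161), Rgs1 (chr1:144242296-144249242) and Rgs18 (chr1:144752683-144775435) follow one another on the minus strand. Rgs13, which lies between Rgs2 and Rgs1, had 0 counts in all 42 libraries. Rgs16 (chr1:153740349-153745468) is on the plus strand. Rgs10 is at chr7:128373621-128418758 on the minus strand, Rgs14 at chr13:55369732-55384687 on the plus strand, and Rgs19 at chr2:181688419-181693977 on the minus strand. The annotation places Gm15503 inside Rgs10 on the same strand. Gm15503 averaged 2.38 counts per library. How reads shared by both genes were counted is not given in the sources used here. The other 6 genes overlapped no other gene of the table.

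Rgs2 and Rgs16 had the largest fall and the largest rise of the 7 genes under LPS at 2 h, and the sequences just upstream of their RefSeq start sites are shown for that reason. Both windows are 238 bases long, run from 250 to 13 bases before the start site, and are written 5′ to 3′ on the strand of the gene. They are chr1:144004162-144004399 (minus strand) for Rgs2 and chr1:153740103-153740340 (plus strand) for Rgs16, on GRCm38.p6. Capitals mark matches on either strand to CGTCA, the core of the cyclic AMP response element, to CCAAT, and to GGGCGG, the GC box.
Rgs2: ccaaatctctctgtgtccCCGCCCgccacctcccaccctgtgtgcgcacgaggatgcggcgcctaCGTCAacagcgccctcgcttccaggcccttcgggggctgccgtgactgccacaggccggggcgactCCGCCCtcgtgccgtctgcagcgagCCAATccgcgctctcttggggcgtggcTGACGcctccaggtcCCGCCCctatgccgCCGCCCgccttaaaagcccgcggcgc
Rgs16: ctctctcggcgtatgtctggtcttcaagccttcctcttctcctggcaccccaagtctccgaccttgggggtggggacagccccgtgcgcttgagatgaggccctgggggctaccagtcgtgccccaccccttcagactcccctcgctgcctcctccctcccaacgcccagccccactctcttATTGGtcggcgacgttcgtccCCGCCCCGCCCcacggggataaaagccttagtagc
The Rgs2 window held 2 matches to CGTCA, 1 to CCAAT and 4 to GGGCGG. The Rgs16 window held 0, 1 and 2, and its 2 GC boxes overlap each other. Both windows also held matches to GGG and CC spaced by 5 bases, a loose form of the NF-kB site, 3 in Rgs2 and 4 in Rgs16, not marked here, and 3 of the 4 in Rgs16 overlap one another. Over 32851 RefSeq promoter windows of this length, 16.7% held CGTCA, 32.9% CCAAT, 31.0% GGGCGG and 43.9% the NF-kB form. Neither window held TGACGTCA (1.42% of all windows), TATAAA (12.0%) or the forkhead core TGTTTAC (3.03%). The GC content was 71.8% for Rgs2 and 65.1% for Rgs16, against a median of 52.1% over all windows. A match is a description of the letters and says nothing of binding. The table also holds windows for Rgs19 and Rgs10, and windows for Rgs1, Rgs14 and Rgs18 were not used here.

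Levels of different genes were compared per kilobase of merged exon. In WT cells at Control 0 h, Rgs10 was the most abundant member at 114 CPM per kb, followed by Rgs19 at 24.2, Rgs2 at 22.0, Rgs18 at 12.1, Rgs14 at 3.57, Rgs1 at 3.48 and Rgs16 at 0.06 CPM per kb. Libraries of Rgs19 and Rgs2 overlapped in that order, as did those of Rgs14 and Rgs1, and each other neighbouring pair was separate. In KO cells at Control 2 h, Rgs10 (99.2 CPM per kb) came first, Rgs2 (32.1) overlapped Rgs19 (27.3), and Rgs18 (9.31), Rgs1 (6.01), Rgs14 (2.49) and Rgs16 (1.23) followed, each separate from the next. In KO cells at LPS 2 h, Rgs10 (88.2 CPM per kb) and Rgs19 (22.8) came first, Rgs1 (9.55) and Rgs18 (9.50) overlapped, and Rgs2 was sixth at 3.16 CPM per kb, overlapping Rgs16 at 4.85. All levels below are CPM scaled by TMM, a normalization that evens out library composition, and fold changes are log2 values of the fit over all genes with their SE.

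**Figure D1:**
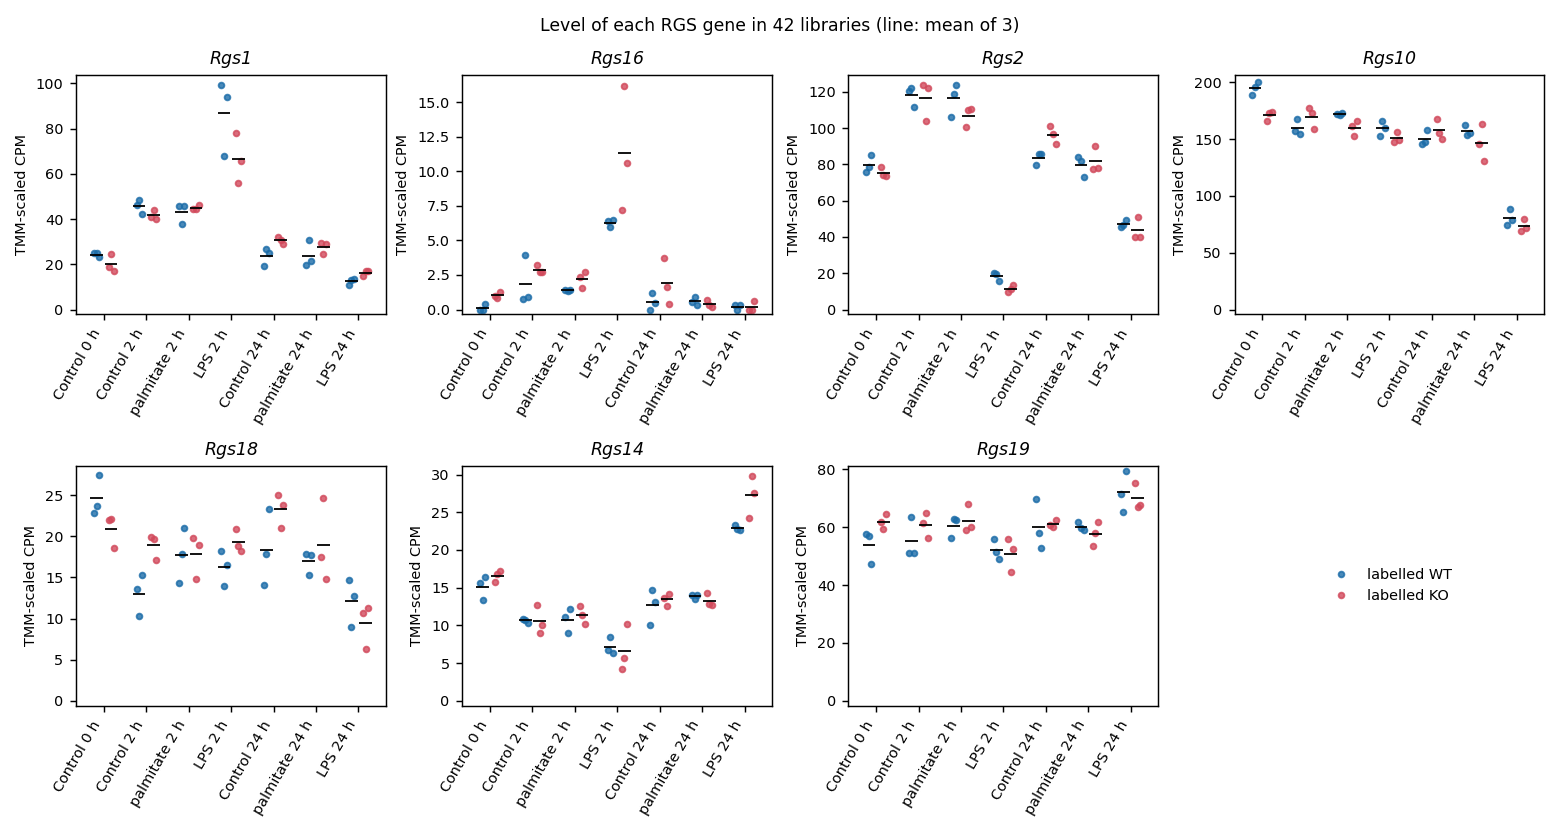
Level of each RGS gene in TMM-scaled CPM (linear vertical axes) in the 42 libraries, by condition on the horizontal axis, with 3 points per group coloured by the genotype label and a line at the mean. Rgs1 and Rgs16 peak at LPS 2 h, Rgs2 is lowest there, and Rgs10 is lowest and Rgs14 highest at LPS 24 h.

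The first comparison asked how the genes responded within 2 h of LPS. Rgs1 and Rgs16 rose, Rgs2 and Rgs14 fell, and Rgs10, Rgs18 and Rgs19 were not called, in WT and in KO alike. Calls required an adjusted p under 0.05 in edgeR's quasi-likelihood test. The 4 of 7 genes called in each genotype stand beside 23.1% of all genes tested in WT and 23.9% in KO. Since the genes were chosen for their responses, nothing is read from that difference.

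Rgs2 moved the most. In WT it read 121, 122 and 112 CPM at Control 2 h and 20.03, 19.5 and 15.6 CPM after 2 h of LPS. In KO it read 124, 104 and 122 CPM at Control 2 h and 9.87, 11.1 and 13.4 CPM after LPS. The LPS and Control libraries were far apart in both genotypes. The fitted log2 fold change was -2.70 (SE 0.11) in WT and -3.31 (SE 0.12) in KO.

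Rgs1, which restrains chemokine receptor signalling in leukocytes, moved the other way. Its WT libraries read 46.3, 48.3 and 42.4 CPM at Control 2 h and 99.5, 67.8 and 94.0 CPM at LPS 2 h. In KO it read 41.1, 44.0 and 40.2 CPM at Control and 77.8, 55.7 and 65.5 CPM at LPS. Each LPS library lay above each Control library of its genotype. The log2 fold change was 0.92 (SE 0.13) in WT and 0.65 (SE 0.13) in KO.

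Rgs16, an inducible regulator of Gi and Gq signals, was rare. Its counts summed over 3 libraries were 34 at WT Control 2 h and 82 at WT LPS 2 h, and 49 and 148 in KO. In WT it read 0.774, 3.97 and 0.889 CPM at Control and 6.44, 5.96 and 6.50 CPM at LPS. In KO the values were 3.26, 2.69 and 2.71 CPM at Control and 7.21, 16.2 and 10.6 CPM at LPS. All LPS libraries lay above all Control libraries. Its fitted log2 fold change was 1.72 (SE 0.55) in WT and 1.99 (SE 0.51) in KO. The WT call was lost without WT Control 2 h library 1 (1.38) or library 3 (1.36). The second Control library was the highest of its group.

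Rgs14 was the other member to fall. Its WT libraries read 10.8, 10.8 and 10.4 CPM at Control 2 h and 6.80, 8.43 and 6.31 CPM at LPS 2 h, with no overlap. In KO it read 12.7, 8.95 and 10.0 CPM at Control and 4.18, 5.67 and 10.2 CPM at LPS, and the groups overlapped through the third LPS library. The log2 fold change was -0.56 (SE 0.20) in WT and -0.60 (SE 0.20) in KO. Both calls were lost with all genes of at least 1 count (-0.57 and -0.62) and in a fit of the compared libraries only (-0.58 and -0.62). In WT the call was lost without LPS library 1 (-0.54) or 3 (-0.45), or without Control library 1 (-0.56), 2 (-0.56) or 3 (-0.59). In KO it was lost without LPS library 1 (-0.43) or 2 (-0.44), or without Control library 1 (-0.46).

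The 3 genes not called had fold changes of 0.00 and -0.17 for Rgs10, 0.30 and 0.02 for Rgs18, and -0.09 and -0.27 for Rgs19, in WT and KO on the log2 scale. In KO, Rgs10 was called without Control 2 h library 3 (-0.22), and Rgs19 without that library (-0.34) or without LPS 2 h library 1 (-0.34). Control and LPS libraries did not overlap for 4 of 7 genes in WT, against 35.2% of all genes tested, and for 5 of 7 in KO, against 34.1%.

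**Figure D2:**
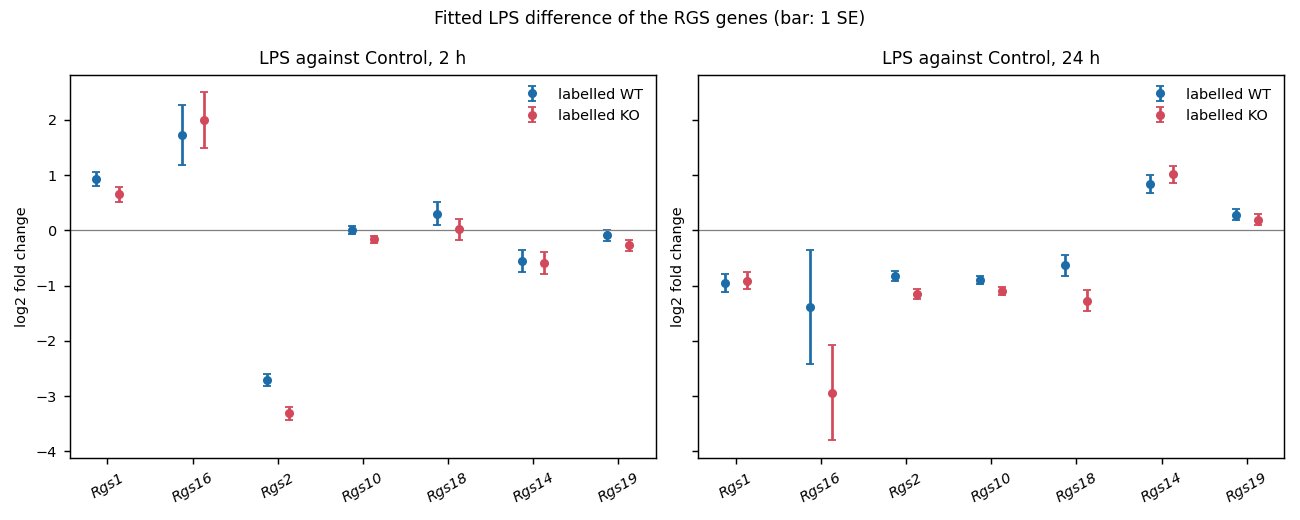
Fitted log2 fold change of LPS against the time-matched Control of each genotype (vertical axis) for each RGS gene at 2 h (left) and 24 h (right), with bars of 1 SE from the fit over 42 libraries, 3 per group. Rgs2 is at -2.70 in WT and -3.31 in KO at 2 h, and Rgs1 lies above 0 at 2 h and below it at 24 h.

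The change of Rgs1 relative to Rgs2 is free of library scaling when 1 gene is divided by the other within a library. Such a ratio cannot show in which direction each gene moved. The ratio of Rgs1 to Rgs2 counts was 4.96, 3.47 and 6.02 in the WT LPS 2 h libraries and 7.88, 5.00 and 4.89 in the KO LPS 2 h libraries. In the other 36 libraries it lay between 0.233 and 0.443. The 6 libraries at LPS 2 h were therefore the ones with more Rgs1 than Rgs2 counts. At LPS 24 h the ratio was back at 0.266 ± 0.021 in WT and 0.376 ± 0.048 in KO (SD, n = 3), beside 0.284 ± 0.036 and 0.318 ± 0.002 at Control 24 h. Both genes were below their 24 h Control at that time, as described next.

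**Figure D3:**
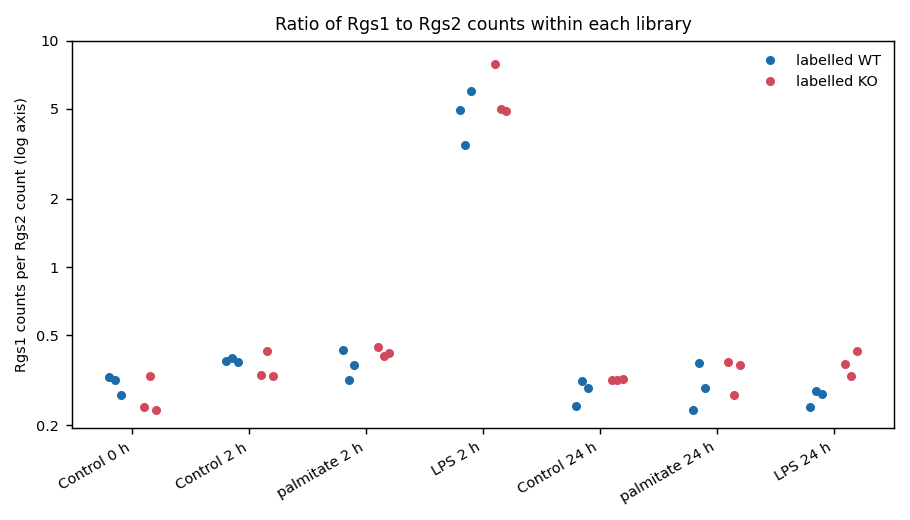
Rgs1 counts per Rgs2 count in each of 42 libraries (log vertical axis) by condition, coloured by the genotype label. The 6 libraries at LPS 2 h lie between 3.47 and 7.88 and all others between 0.233 and 0.443.

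After 24 h of LPS, 4 genes were lower than in Control of the same time in both genotypes (Rgs1, Rgs2, Rgs10 and Rgs18) and Rgs14 was higher in both. Rgs16 was called in KO alone and Rgs19 in WT alone, and for neither was the genotype difference in response called. The count was 6 of 7 in each genotype, beside 39.5% of all genes tested in WT and 40.9% in KO. Summed neutrophil markers were lower at LPS 24 h (29.6 to 32.5 CPM in WT, 40.7 to 62.7 CPM in KO) than at Control 24 h (51.0 to 60.4 and 126 to 197 CPM), and their part in these results was not tested.

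Rgs10, known in macrophages and microglia for restraining inflammatory output, was not called at 2 h and fell at 24 h. In WT it read 146, 147 and 158 CPM at Control 24 h and 74.3, 88.7 and 78.7 CPM at LPS 24 h. In KO it read 168, 155 and 150 CPM at Control and 69.0, 80.1 and 71.4 CPM at LPS. The groups were far apart, and the 6 LPS 24 h libraries were the lowest of all 42. Its fitted log2 fold change was -0.90 (SE 0.07) in WT and -1.10 (SE 0.07) in KO.

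Rgs14 reversed its direction between the times, though its calls at 2 h were lost in several other fits, as given above. Its WT libraries read 10.1, 14.7 and 13.1 CPM at Control 24 h and 23.3, 22.8 and 22.7 CPM at LPS 24 h. In KO it read 13.7, 12.6 and 14.2 CPM at Control and 24.3, 29.9 and 27.5 CPM at LPS. The 6 LPS 24 h libraries were the highest of all 42. The log2 fold change was 0.83 (SE 0.16) in WT and 1.01 (SE 0.16) in KO.

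Rgs1 also reversed. In WT it read 19.4, 26.9 and 25.1 CPM at Control 24 h and 10.95, 13.1 and 13.5 CPM at LPS 24 h, and in KO 32.0, 30.6 and 29.2 CPM at Control and 14.9, 16.8 and 16.98 CPM at LPS. The groups did not overlap. Its fitted log2 fold change was -0.95 (SE 0.16) in WT and -0.91 (SE 0.15) in KO. Rgs2 was lower at both times but by less at the later one. Its WT libraries read 79.4, 85.5 and 85.7 CPM at Control 24 h and 45.4, 46.3 and 49.3 CPM at LPS 24 h, and in KO 101, 96.8 and 91.0 CPM at Control and 40.1, 50.8 and 39.8 CPM at LPS. These groups were separate too. The log2 fold change was -0.83 (SE 0.09) in WT and -1.15 (SE 0.09) in KO.

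Rgs18, best known from platelets and megakaryocytes, fell at 24 h. WT libraries read 14.04, 17.8 and 23.3 CPM at Control 24 h and 14.7, 8.94 and 12.7 CPM at LPS 24 h, and the groups overlapped. In KO it read 25.1, 21.0 and 23.8 CPM at Control and 10.7, 6.35 and 11.3 CPM at LPS, with no overlap. Its fitted log2 fold change was -0.64 (SE 0.20) in WT and -1.27 (SE 0.20) in KO. The WT call was lost without Control 24 h library 3 (-0.42) or LPS 24 h library 2 (-0.46). Megakaryocyte and platelet markers (6 genes, 4 tested) summed to 42.4 to 127 CPM over all libraries, mostly from Pf4 and Itga2b. Gp9, Gp1bb and Treml1 reached at most 1.99, 2.90 and 2.23 CPM and were at 0 in at least 1 library. In WT the sum was 66.0 to 74.3 CPM at LPS 24 h and 45.8 to 58.9 CPM at Control 24 h, higher with LPS where Rgs18 was lower. In KO it was 53.6 to 87.0 CPM at LPS and 86.5 to 95.1 CPM at Control, lower with LPS like Rgs18 but with overlap. The part of these markers in the Rgs18 values was not tested.

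Rgs19 had the smallest fold change of the 7 genes at 24 h. It read 69.9, 57.9 and 52.7 CPM at WT Control 24 h and 71.4, 65.4 and 79.5 CPM at WT LPS 24 h, and its log2 fold change was 0.28 (SE 0.10) in WT and 0.19 (SE 0.10) in KO, where it was not called. The WT groups overlapped, and the WT call was lost without Control 24 h library 2 (0.26) or 3 (0.19) or without LPS 24 h library 3 (0.21). For Rgs16, the 3 LPS 24 h libraries held 4 counts in WT and 4 in KO, against 10 and 27 at Control 24 h. The ratio of LPS to Control was 0.353 (95% interval 0.0808 to 1.22) in WT and 0.130 (0.0331 to 0.373) in KO, and the intervals cover counting error only. The KO fall (-2.94, SE 0.87) lost its call without KO Control 24 h library 1 (-2.11), which read 3.72 CPM beside 1.64 and 0.425 CPM in the other two. Libraries of LPS and Control did not overlap for 4 of 7 genes in WT, against 48.1% of all genes tested, and for 6 of 7 in KO, against 50.2%.

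The difference between the late and the early LPS response was tested for each gene within a genotype. All 7 genes were called in both genotypes, beside 32.6% of all genes tested in WT and 33.4% in KO. For Rgs2 the response was 1.87 (SE 0.15) higher on the log2 scale at 24 h than at 2 h in WT and 2.16 (SE 0.16) in KO, and for Rgs1 it was -1.87 (SE 0.21) in WT and -1.56 (SE 0.20) in KO. For Rgs10 the difference was -0.90 (SE 0.10) in WT and -0.94 (SE 0.10) in KO. In WT, the Rgs19 call (0.37) was lost without LPS 2 h library 2 or 3, Control 2 h library 2, Control 24 h library 2 or 3, or LPS 24 h library 3 (0.26 to 0.38), with all genes of at least 1 count (0.37) and in the compared libraries only (0.38), and the Rgs18 call (-0.93) without Control 24 h library 3 (-0.71). The WT Rgs16 call (-3.11) was lost without Control 2 h library 1 (-2.77) or 3 (-2.75), LPS 2 h library 3 (-3.09), Control 24 h library 2 (-2.05) or LPS 24 h library 2 (-2.58). In KO the Rgs19 call (0.47) was lost without LPS 2 h library 2 (0.37).

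Palmitate was compared with Control at each time, to ask whether a lipid load moved the same genes. In the quasi-likelihood test 0 of 7 genes were called in each of the 4 comparisons, beside 0.275% of all genes tested at 2 h in WT, 0.112% at 2 h in KO, 0.852% at 24 h in WT and 0.877% at 24 h in KO. DESeq2 also called 0. At an unadjusted p under 0.05 there was 1 gene at 2 h in WT (Rgs18), 0 at 2 h in KO, 0 at 24 h in WT and 2 at 24 h in KO (Rgs2 and Rgs16). Rgs2 read 106, 119 and 124 CPM at WT palmitate 2 h, overlapping its Control. In KO at 24 h it read 77.7, 90.4 and 77.8 CPM, below the 3 Control libraries (91.0 to 101 CPM), with a log2 fold change of -0.23 (SE 0.09). Rgs16 in KO at 24 h summed to 7 counts, against 27 at Control, and its log2 fold change was -2.10 (SE 0.79). Apart from Rgs16, fold changes lay between -0.30 and 0.44 on the log2 scale. Palmitate and Control libraries were separate for Rgs10 at 2 h in WT, where 14.9% of all genes were, for Rgs1 at 2 h in KO (11.2%) and for Rgs2 at 24 h in KO (14.3%), and for no member at 24 h in WT (15.0%).

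The genes also moved with time in Control, where no agent was added. How the 0 h and 2 h cultures differed besides time is not given in the sources used here. Over both genotypes, 6 of 7 genes were called at Control 2 h against 0 h (16.7% of all genes tested, 9.35% higher and 7.36% lower) and 3 of 7 at 24 h against 0 h (16.5%, 7.9% higher and 8.62% lower). At 2 h Rgs16 (2.46, SE 0.54), Rgs1 (0.98, SE 0.10) and Rgs2 (0.60, SE 0.06) rose, while Rgs14 (-0.58, SE 0.12), Rgs18 (-0.53, SE 0.13) and Rgs10 (-0.15, SE 0.05) fell on the log2 scale. Rgs19 was at 0.01 (SE 0.07). Rgs16 summed to 3 counts at 0 h and 34 at 2 h in WT, with 24 of the 34 in library 2, and to 17 and 49 in KO. The size of its rise is therefore uncertain. Rgs1 read 24.8, 24.8 and 23.0 CPM at WT Control 0 h and at least 42.4 CPM in each WT Control 2 h library. Rgs1, Rgs14 and Rgs16 thus moved with time in the direction in which LPS moved them further at 2 h, whereas Rgs2 rose with time and fell with LPS. Both comparisons use the same Control 2 h libraries, so that they are not independent. For Rgs2, WT libraries read 76.0, 78.3 and 84.9 CPM at 0 h, so that the LPS 2 h libraries were below the start as well as below the Control of their time.

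At 24 h in Control, Rgs1 (0.30, SE 0.11) and Rgs2 (0.21, SE 0.06) were higher than at 0 h and Rgs10 was lower (-0.25, SE 0.05). The Rgs1 call was lost without any 1 of 9 libraries (0.25 to 0.31), which were KO Control 0 h libraries 1 and 3, WT Control 0 h libraries 1 to 3, WT Control 24 h libraries 2 and 3, and KO Control 24 h libraries 1 and 2. At 2 h the Rgs10 call was lost without WT Control 2 h library 1 or 3, KO Control 0 h library 2 or 3, WT Control 0 h library 3, or KO Control 2 h library 3 (-0.14 to -0.12), and with all genes of at least 1 count (-0.14). Rgs16 was called at 24 h without WT Control 0 h library 3, which held all 3 counts of its group. The fold against the 2 libraries left at 0 counts is no measurement.

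Genotype was compared in each of the 7 conditions. The choice of genes rested on levels and changes in these same libraries, so the genotype values are not independent of it and are a description. Rgs2 at LPS 2 h was the single call among 49 values. It was lower in the libraries labelled KO (9.87, 11.1 and 13.4 CPM) than in WT (20.03, 19.5 and 15.6 CPM), by 0.63 on the log2 scale (log2 fold change -0.63, SE 0.16, adjusted p = 0.048 by edgeR's quasi-likelihood test), beside 0.465% of all genes tested. The groups did not overlap and 3 of 3 KO libraries were lower. The call was lost under RLE size factors (-0.62), in a fit of the libraries compared only (-0.65), and without WT LPS 2 h library 1 (-0.58) or 2 (-0.56) or KO LPS 2 h library 1 (-0.57) or 2 (-0.59). Over its 10 alternatives the adjusted p ran from 0.0207 to 0.457. The test of the difference in LPS response between genotypes gave -0.61 (SE 0.18) with an adjusted p of 0.34 in the same test, so that a genotype effect on the response was not shown.

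No other member was called between genotypes. The share of all genes called was 12.5% at Control 0 h, 0.49% at Control 2 h, 0.146% at palmitate 2 h, 0.12% at Control 24 h, 0.0688% at palmitate 24 h and 0.146% at LPS 24 h, each beside 0 of 7 members by edgeR and by DESeq2. At an unadjusted p under 0.05 there were 3 members at Control 0 h (Rgs10, Rgs16 and Rgs19), 1 at Control 2 h (Rgs18), 3 at Control 24 h (Rgs1, Rgs2 and Rgs16), 1 at LPS 24 h (Rgs1) and 0 in both palmitate conditions. The largest value was Rgs16 at Control 0 h, with 17 counts in KO and 3 in WT. The count ratio was 6.67 (95% interval 1.93 to 35.5), the log2 fold change 2.59 (SE 0.98) and the edgeR adjusted p 0.074, which ran from 0.0349 to 0.214 over 9 alternatives. It was called with all genes of at least 1 count (2.59) and without WT Control 0 h library 3. At LPS 2 h, where its counts were highest, Rgs16 held 148 in KO and 82 in WT, a count ratio of 1.93 (1.46 to 2.56). The ratio was 2.65 (1.24 to 6.13) at Control 24 h, 1.52 (0.963 to 2.43) at Control 2 h and 1.58 (0.929 to 2.75) at palmitate 2 h. It was 0.651 (0.210 to 1.89) at palmitate 24 h. At LPS 24 h Rgs16 held 4 counts in each genotype, a count ratio of 0.975 (0.182 to 5.23). These intervals cover counting error only, and no Rgs16 value was called between genotypes in the main fit. Rgs1 at LPS 2 h was lower in KO by 0.40 (log2 fold change -0.40, SE 0.13, edgeR adjusted p = 0.16), and it was called without WT LPS 2 h library 2 (-0.56).

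Rgs18 at Control 2 h read 19.9, 19.7 and 17.1 CPM in KO and 13.5, 10.3 and 15.3 CPM in WT, a log2 difference of 0.53 (SE 0.19, edgeR adjusted p = 0.26). Summed megakaryocyte markers there were 58.2 to 107 CPM in KO and 42.4 to 59.1 CPM in WT, and their part was not tested. KO and WT libraries did not overlap for 4 of 7 members at Control 0 h (28.0% of all genes), 1 at Control 2 h (16.9%), 2 at palmitate 2 h (16.1%), 2 at LPS 2 h (12.8%), 2 at Control 24 h (11.6%), 0 at palmitate 24 h (12.5%) and 2 at LPS 24 h (13.4%). The interactions of genotype with treatment gave 0 of 7 calls by edgeR and by DESeq2 in all 4 tests, beside 0% of all genes for LPS at 2 h, 0.0086% for LPS at 24 h and 0% for palmitate at 2 h and at 24 h. At an unadjusted p under 0.05 they held 1 member for LPS at 2 h (Rgs2), 2 for LPS at 24 h (Rgs2 and Rgs18) and 0 for palmitate.

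**Figure D4:**
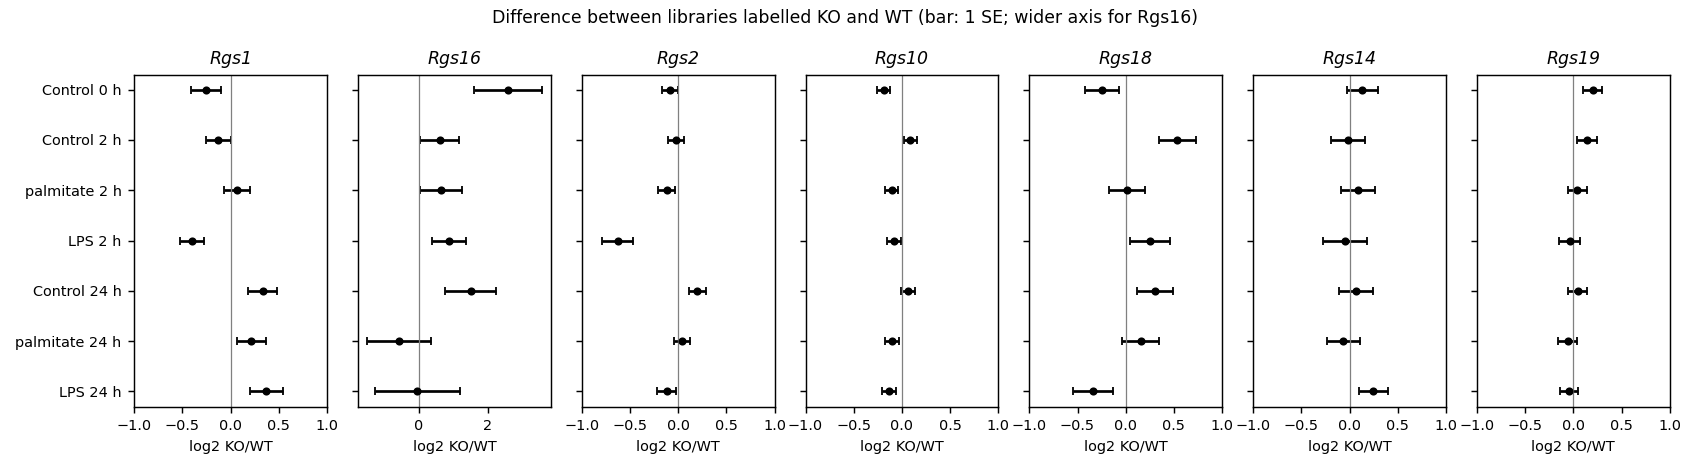
Fitted log2 difference between libraries labelled KO and WT (horizontal axis, wider for Rgs16) in each condition (vertical axis) for each RGS gene, with bars of 1 SE from the fit over 42 libraries, 3 per group. Rgs2 at LPS 2 h (-0.63) is the single value called, and Rgs16 at Control 0 h (2.59) has the largest estimate and a wide error.

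For each member the 2 genes with the most similar pattern were taken by Pearson r over the 14 group means of log2 CPM, among 11043 genes. The group means share their libraries and their scaling, and r is given as a description. Rgs1 ran closest to Rcan1 (r = 0.979), which encodes a calcineurin inhibitor, and the phosphatase gene Dusp8 (0.972). Rgs2 ran closest to the homeobox gene Hhex (0.990) and to Lpar6 (0.984), a lysophosphatidic acid receptor that is itself coupled to G proteins. Rgs10 ran with S100a1 (0.992) and Wwp1 (0.990), Rgs14 with Zbtb7b (0.989) and Tor4a (0.977), and Rgs16 with the kinase genes Map4k4 (0.955) and Stk38l (0.9505). For Rgs18, Slc39a10 (0.942) and Gusb (0.905) came first, and for Rgs19 Baz1b (0.959) and Anapc16 (0.930). Among the members themselves, Rgs1 and Rgs16 were most alike (0.883) and Rgs1 and Rgs14 most opposed (-0.937).

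Among other genes named Rgs, 13 of 14 listed were in the table and 4 were tested (Rgs3, Rgs9, Rgs11 and Rgs12). Rgs3 rose at LPS 2 h by 1.43 (SE 0.31) in WT and 1.39 (SE 0.31) in KO on the log2 scale and was not called at 24 h. Rgs12 was -1.54 (SE 0.37) and -1.52 (SE 0.34), and Rgs11 -2.95 and -2.38, at LPS 24 h in WT and KO, and all 4 of these values were called. Rgs11 was rare, with 145 counts over all 42 libraries and a median of 0.480 CPM. Its WT LPS 24 h libraries read 0, 0 and 0.122 CPM per kb, so the size of its fall is uncertain. Of the RGS-box genes with other names, 12 were tested, and 3 were higher and 1 lower at LPS 2 h in each genotype. Grk3, a receptor kinase, rose by 0.78 (SE 0.17) and 0.74 (SE 0.17), and Akap10, an anchor of protein kinase A, was at -0.62 (SE 0.11) and -0.74 (SE 0.11).

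The G proteins and receptors that RGS proteins act beside were read from lists of 107 tested genes, which include the RGS lists above. The lists were chosen with earlier results of these data known, so nothing is read from a difference to the share of all genes. At LPS 2 h 25 were called higher and 13 lower in WT and 26 and 12 in KO, beside 14% and 9.1% of all genes in WT and 14.7% and 9.16% in KO. At LPS 24 h the numbers were 27 higher and 31 lower in WT and 19 and 37 in KO, beside 19.6% and 19.9% in WT and 19.9% and 21% in KO. The median log2 fold change of these genes was 0.04 and -0.01 at 2 h and -0.11 and -0.13 at 24 h in WT and KO, against -0.01 for all genes in each of the 4 comparisons. Among the 9 G alpha genes, Gna13 rose at 2 h by 1.00 (SE 0.05) in WT and 1.07 (SE 0.05) in KO and was not called at 24 h. Gna15, of the Gq class, was lower at 2 h (-0.50, SE 0.14, and -0.89, SE 0.14) and higher at 24 h (0.96, SE 0.14, and 0.58, SE 0.13). Gnaq went the other way, at 0.33 and 0.22 at 2 h and -0.51 and -0.54 at 24 h (SE 0.08 each). Of 9 beta and gamma genes, Gnb1 rose at 24 h by 0.62 and 0.69 (SE 0.06 each).

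Receptors held the largest changes. Of 20 Gi-coupled receptor genes, 6 were higher and 4 lower at LPS 2 h in WT, and 6 and 5 in KO. Hcar2, a receptor for nicotinate and ketone bodies, rose by 4.72 (SE 0.50) in WT and 4.53 (SE 0.46) in KO. It was rare, with 545 counts over all 42 libraries, a median of 0.617 CPM and a lowest count of 0, so the size of its rise is uncertain. Gpr84, a receptor for medium-chain fatty acids, rose by 3.87 (SE 0.21) and 4.03 (SE 0.20), with a median of 6.11 CPM over all libraries and a lowest count of 0. Fpr2, a formyl peptide receptor, rose by 2.24 (SE 0.24) and 2.35 (SE 0.22) at 2 h and by 4.46 (SE 0.21) and 4.32 (SE 0.21) at 24 h. Of 13 Gs- and Gq-coupled receptor genes, 6 were higher and 1 lower at 2 h in each genotype. The adenosine receptor gene Adora2a rose by 3.52 (SE 0.25) and 4.10 (SE 0.25), and the 1 lower gene was Lpar6 (-2.28, SE 0.20, and -3.28, SE 0.24).

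In the cyclic AMP arm, 0 of 6 adenylyl cyclase genes were called at LPS 2 h in either genotype by edgeR (0 in WT and 1 in KO at an unadjusted p under 0.05), and at 24 h 2 were lower in WT and 3 in KO. Adcy3 was at -1.62 (SE 0.14) and -1.44 (SE 0.14) and Adcy9 at -1.23 (SE 0.13) and -1.26 (SE 0.12). Among 10 phosphodiesterase genes, Pde4b, which encodes an enzyme that degrades cyclic AMP, rose by 3.37 (SE 0.12) and 3.44 (SE 0.13) at 2 h and stayed higher at 24 h, by 2.37 (SE 0.19) and 2.22 (SE 0.18). In Control at 2 h against 0 h, 7 of the 10 were higher, beside 9.35% of all genes tested, led by Pde4d (2.76, SE 0.19). Of 4 phospholipase C beta genes, 3 were lower at 24 h in each genotype, such as Plcb4 (-1.74, SE 0.36, in WT and -0.84, SE 0.33, in KO).

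Under palmitate the lists held 0 calls at 2 h in both genotypes by edgeR (9 genes in WT and 6 in KO at an unadjusted p under 0.05), 1 at 24 h in WT (Pde3b, 0.88, SE 0.16) and 2 at 24 h in KO (Pde3b, 0.69, SE 0.16, and Fpr2, 1.07, SE 0.26), all higher. Of all genes tested, 0.275% in WT and 0.112% in KO were called at 2 h and 0.852% in WT and 0.877% in KO at 24 h. Between genotypes, 7 of the 107 genes were higher and 11 lower in KO at Control 0 h, beside 12.5% of all genes tested, Cx3cr1 was higher at Control 2 h (1.06, SE 0.24) and Cxcr4 lower at LPS 2 h (-0.49, SE 0.12). Cx3cr1 overlaps 5 other genes in the annotation, and without knowledge of the strand in counting its reads are uncertain.

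**Figure D5:**
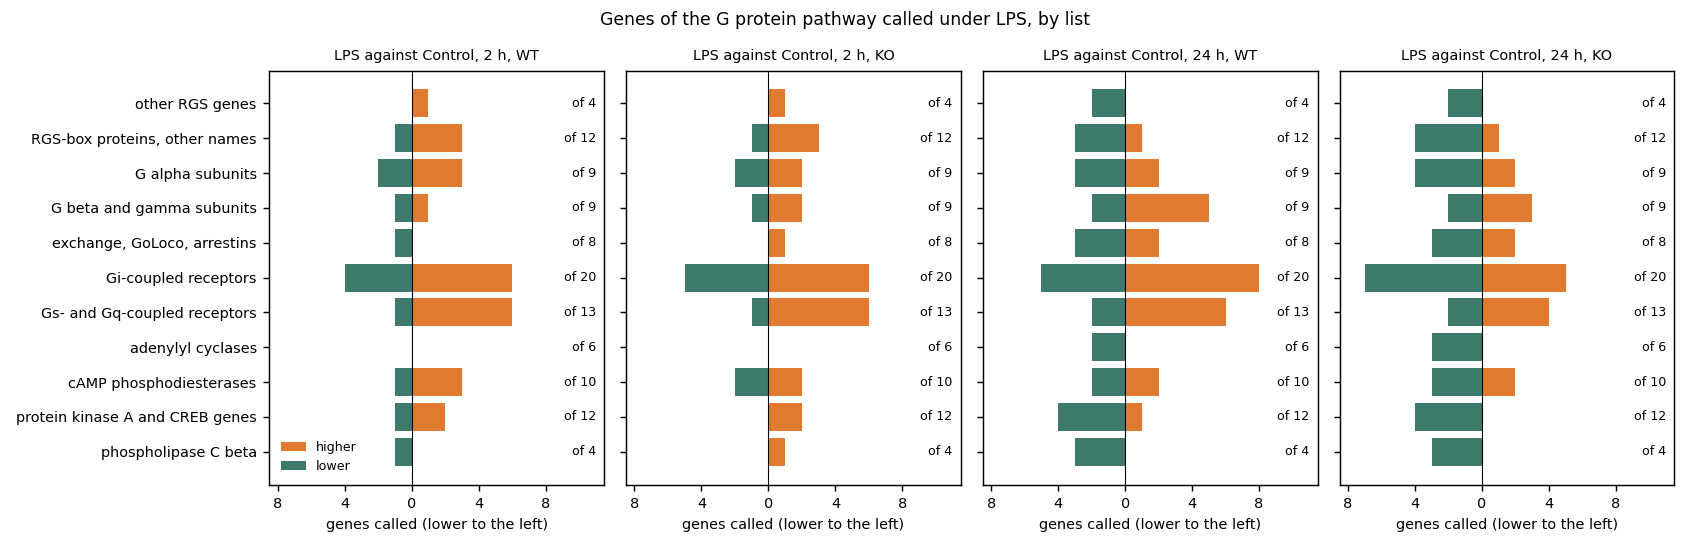
Number of genes called higher (bars to the right) and lower (bars to the left) by LPS in each list of G protein pathway genes (vertical axis), in 4 panels for 2 h and 24 h in WT and KO, with the number tested at the right edge. The Gi-coupled receptor list, the largest with 20 genes, holds the most calls in each panel, and 0 of 6 adenylyl cyclases were called at 2 h.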

How the data were processed

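Libraries were stranded and ribodepleted, prepared from total RNA with PCR amplification and no molecular identifiers, and sequenced in paired ends. The authors trimmed the reads (fastp 0.19.11), aligned them to mm10 (STAR 2.7.3a) and deposited raw counts per gene. The annotation release and the use of strand in counting are not given in the sources used here. The columns of the table name a group and no replicate, so library numbers follow column order. No pair of replicates agreed within sampling noise (chi-square per degree of freedom 1.93 to 9.32 over 42 pairs). The highest values, 9.32 and 7.76, were pairs with KO LPS 2 h library 1, the library with the fewest counts.

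The counts went through edgeR 4.0.16 under R 4.3.3: filterByExpr (11624 genes kept), TMM scaling, 1 quasi-likelihood model with a mean per group over all 42 libraries, F tests of 23 contrasts and Benjamini-Hochberg adjustment over all genes tested, with a call at an adjusted p under 0.05. The study itself used DESeq2. Levels are TMM-scaled CPM, and pattern likeness was read from log2 CPM (prior count 2). Positions and exon lengths came from GENCODE for GRCm38, promoter windows from RefSeq. Of 37310 identifiers, 32620 had a symbol. The edgeR and DESeq2 tests were checked on simulated data of 1 comparison, LPS against Control at 2 h in WT. The members and all lists were chosen with earlier results of these data known. Of each pathway list, at most 4 genes called under LPS with the largest change and a mean of at least 1 CPM were named, and Rgs11, Cx3cr1 and Cxcr4 were named after their values were seen. Alternatives were the Wald test of DESeq2 1.42.0, RLE size factors, no filter beyond 1 count per gene, fitting just the compared libraries, CPM on the total count for levels, and leaving out each library in turn. Lists of B cell (3.60 to 13.4 CPM summed) and mast cell markers (2.17 to 12.2 CPM) served as checks beside those in the text. The other data types of the study were not analysed here.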

Additional observations from a re-analysis of the deposited data

Results flagged for a closer look

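For all 7 genes the LPS response at 24 h differed from that at 2 h by the quasi-likelihood test of the difference itself, in both genotypes. The genes had been chosen with these responses known, and the values are a description. As a log2 difference between the response at 24 h and that at 2 h, WT libraries gave -1.87 for Rgs1, 1.87 for Rgs2, -0.90 for Rgs10, 1.39 for Rgs14, -3.11 for Rgs16, -0.93 for Rgs18 and 0.37 for Rgs19. KO libraries gave -1.56 for Rgs1, 2.16 for Rgs2, -0.94 for Rgs10, 1.61 for Rgs14, -4.93 for Rgs16, -1.29 for Rgs18 and 0.47 for Rgs19. Rgs1 and Rgs14 were called on opposite sides of 0 at the 2 times in both genotypes, and Rgs16 in KO. The Rgs14 calls at 2 h and the Rgs16 call at 24 h in KO were lost in some other fits. Rgs2 was lower at both times.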

How the results depend on the processing

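Of 161 values of the 7 genes over 23 comparisons, DESeq2 kept the side of the threshold of all 161, RLE size factors of 160 and all genes with at least 1 count of 156. The fit of the compared libraries only kept 144 and lost 4, and 13 others were not tested there. Leaving out each library in turn kept 1248 values, lost 48 calls and made 6. No called value changed sign, and 78 uncalled ones did. Between genotypes at LPS 2 h the number of members called went from 1 to 0 under RLE and in the compared libraries only, and was 0 to 1 without a library. At Control 0 h it went from 0 to 1 with all genes of at least 1 count, and was 0 to 1 without a library. For LPS at 2 h in WT it was 2 to 4 without a library. The causes were not tested. No paired analysis was possible because the columns carry no replicate numbers. Depth limits Rgs16, with 460 counts over all 42 libraries, most of all.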
